A study of Drosophila melanogaster with 3 samples.

Results

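Of 9515 places where Blimp-1 was found on DNA in whole fly embryos, 584 (6.14%) lay between genes and far from any transcription start site (TSS). A peak was counted among these distal intergenic peaks when its summit fell in no annotated transcript and lay more than 5 kb from the TSS of every gene in the dm6 annotation, with pseudogenes and transposable elements left out. The peaks come from chromatin immunoprecipitation and sequencing (ChIP-seq) of whole Drosophila melanogaster embryos aged 10 to 12 h. The embryos were of 1 transgenic line that stably carries Blimp-1 fused at its C terminus to green fluorescent protein (GFP), and the tagged protein was pulled down with an antibody to GFP. What drives the tagged gene is not given in the labels. There were 3 samples numbered as biological replicates, 1 group and no second condition, so the comparisons are between distal peaks and other peaks and between summits and their own flanks. The authors' deposited list of peaks that are reproducible between replicates by the irreproducible discovery rate (IDR) was used, and strength means the authors' signal value in it, on a scale left undefined in the sources used here.

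Blimp-1 corresponds to mammalian PRDM1, a zinc finger protein that binds DNA and mostly represses its targets. In flies it is induced by the steroid hormone ecdysone, holds back the nuclear receptor gene ftz-f1 until the hormone has declined, and is needed for the tracheal tubes and the cuticle of the embryo. Many genes of animal development, those for transcription factors above all, are controlled by enhancers and silencers that lie in the long stretches between genes, at a distance from the promoter they act on. A whole embryo mixes all its cell types, so a weak peak in few cells or in many cannot be told apart, and a peak between 2 genes names neither as its target.

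Distal peaks were compared with 5 other positions of the same list. Promoter peaks (2987) had a summit within 500 bp of a TSS, near intergenic peaks (1204) lay between genes at up to 5 kb from a TSS, near intron peaks (2825) and far intron peaks (1646) lay in introns on either side of that limit, and 269 peaks lay in other exons. Far introns are the nearest like to distal intergenic sequence, since both are noncoding DNA beyond 5 kb from a TSS. The 3 distal peaks just inside the limit were 5003, 5019 and 5026 bp from a TSS and had ranks 4908, 7482 and 1980 by signal. The 3 intergenic peaks just outside it were 4998, 4985 and 4984 bp away and had ranks 679, 5891 and 6117.

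The sequences at the strongest distal summits show both kinds of peak found there, with and without the short word known as the Blimp-1 site. That site was searched as AGTGAAAG or AGCGAAAG on either strand within 50 bp of the summit. The first 5 sequences are from the strongest distal peaks that hold it, on arms 2L, 3L, 3R and X, and the site is in capitals. Each runs from 50 bp before to 50 bp after the summit on the plus strand of dm6.
peak of rank 109, Rilpl–futsch, chrX:1399227-1399327: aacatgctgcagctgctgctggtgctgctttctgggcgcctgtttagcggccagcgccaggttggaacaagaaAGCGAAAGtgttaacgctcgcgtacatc
peak of rank 391, ich–CAHbeta, chr3R:8970857-8970957: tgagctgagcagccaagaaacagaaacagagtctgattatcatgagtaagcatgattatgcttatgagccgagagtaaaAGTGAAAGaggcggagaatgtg
peak of rank 420, mah–tnc, chr3R:24968165-24968265: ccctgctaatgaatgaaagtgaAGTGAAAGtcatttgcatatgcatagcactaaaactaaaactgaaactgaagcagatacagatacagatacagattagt
peak of rank 1400, nrv3–His1:CG33801, chr2L:21397224-21397324: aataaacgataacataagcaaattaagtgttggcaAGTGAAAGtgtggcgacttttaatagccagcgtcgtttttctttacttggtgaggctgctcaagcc
peak of rank 1638, CG9411–CG12540, chrX:14486869-14486969: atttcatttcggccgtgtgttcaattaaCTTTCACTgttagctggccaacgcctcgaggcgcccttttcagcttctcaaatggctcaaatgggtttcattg
In the last of these the site is on the minus strand, so the plus strand printed here reads CTTTCACT. The next 3 are the strongest distal peaks without the site on the same arms, and have no capitals.
peak of rank 47, Eaf6–Blimp-1, chr3L:5622129-5622229: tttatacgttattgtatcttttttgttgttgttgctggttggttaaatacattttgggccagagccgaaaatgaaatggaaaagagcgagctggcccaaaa
peak of rank 170, Eaf6–Blimp-1, chr3L:5616683-5616783: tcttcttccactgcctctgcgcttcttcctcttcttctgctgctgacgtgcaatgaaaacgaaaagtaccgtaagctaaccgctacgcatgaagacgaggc
peak of rank 423, CG11333–mey, chr3R:31483210-31483310: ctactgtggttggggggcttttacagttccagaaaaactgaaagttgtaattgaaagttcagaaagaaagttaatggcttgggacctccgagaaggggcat
The peak of rank 109 lies between Rilpl, a gene of the Rab-interacting lysosomal protein family, and futsch, which encodes a microtubule-associated protein of neurons. Those of ranks 391 and 420 lie beside ich, which encodes a zinc finger protein needed for the matrix of the tracheal lumen, and tnc, which encodes a mucin-like protein of the extracellular matrix. The first 2 of the 3 peaks without the site both lie upstream of the Blimp-1 gene itself.

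The Blimp-1 site was found in 26 of the 584 distal windows (4.45%, 95% Wilson interval 3.06 to 6.44) and in 3 equally wide windows whose centres lie 500 bp to the right (0.514%). No peak held it in both windows. The summit windows therefore held it 8.67 times as often (exact 95% interval 2.66 to 44.7; two-sided exact McNemar test, p = 1.52e-05). The flank 500 bp to the left also held 3. Both flanks were at the low end of their surroundings. In 18 windows from 200 to 1000 bp on either side the share ran from 0.514% to 2.23% with a median of 1.11%. The site was present in 0.906% of 159559 windows of that width that tile the distal intergenic sequence of the genome and are at most 50% masked as repeat, and in 6.31% of all 9515 peaks.

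The same excess at the summit was seen in each replicate. Among the 9515 strongest peaks of a replicate, the site was at 32 of 559 distal summits of replicate 1, 23 of 555 of replicate 2 and 27 of 520 of replicate 3. The flanks held 4, 6 and 5. The share at the summit was 5.02% ± 0.804 and the ratio to the flank 5.74 ± 2.10 (mean ± SD, n = 3), above 1 in 3 of 3 replicates. With 3 replicates the smallest p that an exact two-sided sign-flip test can give is 0.25. Over all 584 peaks, windows of 100 bp on each side gave a ratio of 1.94 (exact McNemar test, p = 0.0293). Beyond 10 kb from any TSS, where 214 peaks remained, 11 summits and 3 flanks held the site, a ratio of 3.67 that missed the threshold (exact 95% interval 0.969 to 20.5, exact McNemar test, p = 0.0574).

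**Figure D1:**
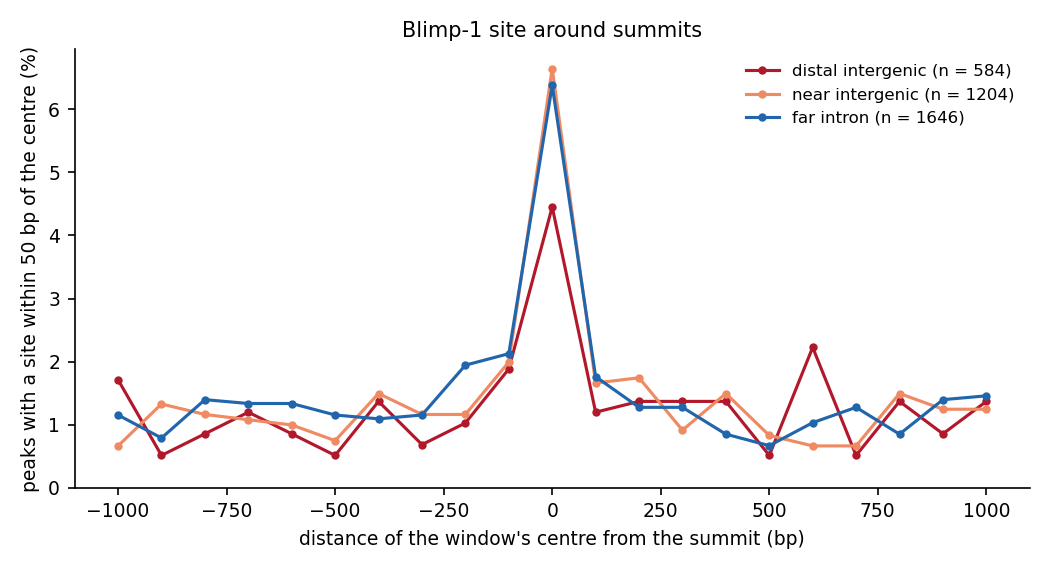
Share of peaks with a Blimp-1 site (%) within 50 bp of points at increasing distance from the summit (bp), for distal intergenic, near intergenic and far intron peaks. The distal line reaches 4.45% at the summit and stays between 0.514% and 2.23% from 200 bp outward, and the other 2 lines reach 6.64% and 6.38%.

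The 26 sites were 17 of the form AGTGAAAG and 9 of the form AGCGAAAG, and no peak held more than 1. Their median distance from the summit was 22 bp, and 13 were within 20 bp. By count, sites were more common in stronger peaks. Of the 584 peaks ranked by signal and divided in 5 parts of 116 or 117, the strongest part held 10 sites, the next 3 parts held 5 each and the weakest held 1. Of the 26 peaks with a site 16 were in the stronger 50% of the whole list (61.5%), against 225 of 558 without (40.3%). Of the 26 peaks, 25 were matched in all 3 replicates.

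The site's share in distal peaks was lower than in far introns and near intergenic peaks, but no difference passed the test in windows of 50 bp on each side. The share was 4.45% in distal peaks and 6.43% in the 8931 other peaks (odds ratio 0.678, two-sided Fisher's exact test, p = 0.0643). It was 6.38% in far introns (odds ratio 0.684, adjusted p = 0.151), 6.64% in near intergenic peaks (odds ratio 0.655, adjusted p = 0.151) and 4.92% at promoters (odds ratio 0.900, adjusted p = 0.675), by Fisher's exact tests with Benjamini-Hochberg adjustment over the 3 classes. The direction against promoters was not stable. In the lists of the single replicates the share was 5.72%, 4.14% and 5.19% at distal summits, against 5.69%, 4.48% and 3.97% at promoters, and the odds ratio was above 1 with limits of 3 kb (1.2) and 10 kb (1.05), with coding genes only (1.23), in the stronger 50% of the list (1.19) and with 1 peak per gap (1.13). Against near intergenic peaks the call turned with the width of the window. With 25 bp on each side the odds ratio was 0.458 (Fisher's exact test, adjusted p = 0.0276) and with 100 bp it was 0.602 (adjusted p = 0.0355).

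Of 23 words of known factors searched on both strands, 3 differed between summit and flank after adjustment. AGTGAAAG alone was at 17 summits and 2 flanks (exact McNemar test, adjusted p = 0.00838). The second form of the site, AGCGAAAG, was at 9 summits and 1 flank and did not pass by itself (exact McNemar test, adjusted p = 0.0988). The word GAAAGTGA, which is the Blimp-1 word shifted to the left in a longer repeat, was at 16 summits and 3 flanks (exact McNemar test, adjusted p = 0.0339). In 2 of those 16 the 2 words shared bases, and in 5 the peak held both. The CA repeat CACACACA went the other way, with 1 summit and 17 flanks (exact McNemar test, adjusted p = 0.00333). It was in 1.75% of the 159559 distal intergenic windows described above and 2.08% of all peaks. Mostly masked windows were left out of that genome set but not out of the summits or flanks, so the shares are not like for like. With the strongest peak of each gap alone (289 peaks), 0 of the 23 words passed, while the Blimp-1 site in both forms together still did, at 16 summits and 1 flank (exact 95% interval of the ratio 2.49 to 671, exact McNemar test, p = 0.000275).

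No word of another factor passed the test. The GAGA factor word GAGAGAGA was at 0 summits and 7 flanks (exact McNemar test, adjusted p = 0.0898). ATGCAAAT, bound by POU proteins, was at 13 summits and 7 flanks, and TTAATTA, a core of homeodomain binding, was at 29 and 20. TGACTCA, bound by AP-1, was at 10 and 3 (adjusted p = 0.303, McNemar's exact test). These shares were 2.23%, 4.97% and 1.71% of distal summits and 1.89%, 5.37% and 0.977% of all peaks.

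Distal summits differed from other classes in a few of these words. Over 69 Fisher's exact tests of 23 words against 3 classes, a set chosen after the data had been seen, 7 passed with adjusted p below 0.05. DREF's TATCGATA and M1BP's GGTCACAC, words of core promoters of broadly expressed genes, were at 0 of 584 distal summits, which allows a share of up to 0.514%, against 1.44% and 1.10% of promoter peaks (Fisher's exact tests, adjusted p = 0.0153 and 0.0387). They were in 0.210% and 0.157% of the genome's distal intergenic windows, within that limit, and in 0.578% and 0.494% of all peaks. The genome set leaves out mostly masked windows, and the summits do not. The rule for distal peaks leaves out every promoter. GAGAGAGA was at 0 distal summits and 1.24% of promoter peaks (Fisher's exact test, adjusted p = 0.0299). It was in 0.418% of the same set of genome windows and 1.07% of all peaks. CACACACA was at 0.171% of distal summits, against 1.94% in far introns, 1.99% in near intergenic peaks and 1.98% at promoters (Fisher's exact tests, adjusted p = 0.0153 each). GAAAGTGA was at 2.74% of distal summits, against 6.14% in far introns (odds ratio 0.431, Fisher's exact test, adjusted p = 0.0153).

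Distal summits were poor in G and C. The median GC content was 31.7% in the summit window and 43.6% in the flank. It was lower at the summit in 421 peaks, higher in 150 and equal in 13, with a median difference of -10.9 percentage points (exact sign test, p = 9.64e-31). The genome's distal intergenic windows, with mostly masked ones left out, had a median of 42.6%. Summits of the other classes were also AT-rich, with medians of 34.7% in far introns, 33.7% in near intergenic peaks and 34.7% at promoters. Of 2080 6-mers, 134 (6.44%) were found at more summits than flanks and 124 (5.96%) at fewer, with exact McNemar tests at adjusted p below 0.05. Of the 134, 133 have at most 2 letters G or C, and of the 124, 98 have at least 4.

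Among the called 6-mers, ordered by the ratio of summits to flanks with 0.5 added to both counts, the first 3 were ACCTAT at 31 summits and 6 flanks (adjusted p = 0.00122, exact McNemar test), TACTAA at 48 and 10 (adjusted p = 2.35e-05) and CTATGC at 24 and 6 (adjusted p = 0.0177). The same words were at 5.31%, 8.22% and 4.11% of distal summits, against 3.77%, 5.35% and 2.61% of far intron summits. The last 3 were CAGGAC at 1 summit and 17 flanks, CCGAGG at 1 and 16 and CCTGAG at 1 and 16. More than 50% of the window was soft-masked as repeat in 12.8% of distal peaks and 11.3% of other peaks. Without those windows, an alternative chosen after the data had been seen, 84 6-mers were higher and 49 lower.

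Distal peaks tended to be weak. Their signal values ran from 208.3 to 6434.7 with a median of 366.5, against a median of 437.6 in the 8931 other peaks, and their median rank was 5594.5 against 4703. Of the distal peaks 41.3% were in the stronger 50% of the list, against 50.6% of other peaks (odds ratio 0.687, Fisher's exact test, p = 1.54e-05). Only 24 (4.11%) were in the strongest 10%, against 10.4% of other peaks (odds ratio 0.370, p = 1.02e-07, 4.08e-07 after adjustment over 12 Fisher's exact tests). The strongest 10% is 9.99% of the list by construction.

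Of the 3 classes tested one by one, promoters and near intergenic peaks differed from distal peaks in strength. The stronger 50% held 41.3% of distal peaks, against 55.9% of promoter peaks (adjusted p = 6.06e-10) and 47.3% of near intergenic peaks (adjusted p = 0.0416, Fisher's exact tests adjusted over the same 12). Against far introns, with 43.3% in the stronger 50%, it did not pass (odds ratio 0.919, Fisher's exact test, adjusted p = 0.544). Peaks in 1 gap between genes are not independent of one another, so these p-values treat as separate what may be shared.

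Each replicate by itself gave the same order for promoters. The share of distal peaks in the stronger 50% of a replicate's 9515 strongest peaks was 43.5%, 41.4% and 45.4% in replicates 1, 2 and 3. The promoter shares were 57.9%, 53.2% and 53.7%, above the distal share in 3 of 3, and the 2 sets of values did not overlap. The far intron shares were 42.9%, 44.5% and 44.9%, which overlap the distal ones. The means were 43.4% ± 1.97 for distal peaks, 44.1% ± 1.03 for far introns and 54.9% ± 2.56 for promoters (SD, n = 3). Distal peaks made up 5.87%, 5.83% and 5.47% of the strongest 9515 in the 3 replicates, with a mean of 5.72% ± 0.225.

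**Figure D2:**
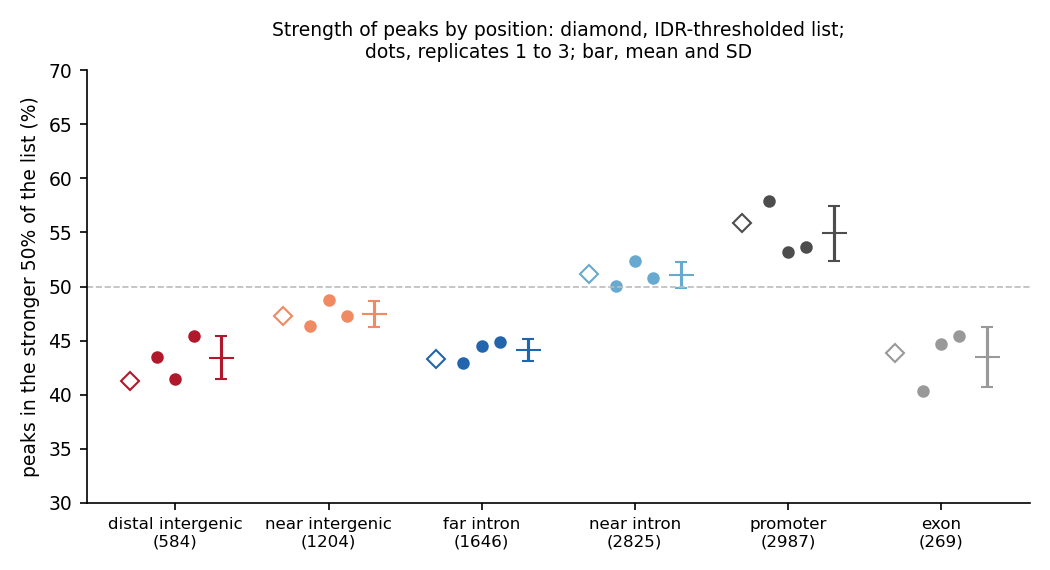
Share of peaks (%) in the stronger 50% of a list by position, with the number of peaks in the IDR-thresholded list under each name; diamonds are that list, dots the 3 replicates and bars their mean and SD. The distal dots lie at 43.5%, 41.4% and 45.4%, below all 3 promoter dots and within reach of the far intron dots.

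Distal positions were also less common above the authors' IDR threshold than below it. They made up 6.14% of the peaks that passed and 8.97% of 20485 pooled peaks with no passing summit within 100 bp (1837 peaks; odds ratio 0.664, Fisher's exact test, p = 1.36e-17). Strength did not change steadily with distance. The stronger 50% held 41.2% of the 228 peaks at 5 to 7.5 kb from a TSS, 41.5% of 142 at 7.5 to 10 kb, 43.2% of 169 at 10 to 20 kb and 33.3% of 45 beyond 20 kb. Spearman's rho between signal and distance across the 584 peaks was 0.0059, a description of peaks that are not independent.

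Most distal peaks were matched in every replicate, at a share close to that of all peaks. The IDR list was chosen for reproducible peaks and each replicate list held 30000 peaks. A high share was therefore in part set in advance. Of the 584, 533 (91.3%) had a summit within 100 bp in the list of each of the 3 replicates, against 91.4% of the other peaks and 91.4% of all 9515 (odds ratio 0.980, Fisher's exact test, p = 0.879). Another 45 were matched in 2 replicates and 6 in 1. With summits required within 50 bp the odds ratio was 0.819 (p = 0.0327, Fisher's exact test), so tight matching was less common among distal peaks. The matched summits were displaced by medians of 13, 12 and 10 bp in replicates 1, 2 and 3. Spearman's rho between the replicates' signal values across the 533 was 0.839 for replicates 1 and 2, 0.796 for 1 and 3 and 0.874 for 2 and 3. Across 8165 other peaks matched in all 3 it was 0.857, 0.832 and 0.903. All replicates were called against 1 shared control alignment, so its noise is common to them.

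Distal intergenic sequence is 15.2% of the 5 large chromosome arms and held all 584 peaks, a mean density of 29.0 peaks per Mb. The arms differed. Arm 2L had 118 peaks at 36.9 per Mb of distal intergenic sequence, 3L had 202 at 36.4 and 3R had 129 at 34.1. The X had 64 at 21.8 per Mb and 2R had 71 at 15.2. Chromosomes 4 and Y had 0. Counting only sequence that is not masked as repeat, the density was 51.7, 53.4, 49.2, 31.3 and 23.6 per Mb on 2L, 3L, 3R, X and 2R. The masked share of that sequence ran from 28.6% on 2L to 35.7% on 2R, and its part in the densities was not tested.

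Distal peaks came in groups. The arms hold 1390 gaps between annotated genes that contain distal sequence, and 289 of them (20.8%) held a distal peak. A single peak was in 164 gaps, while 125 gaps held 2 or more and together 420 peaks (71.9%). The 26 gaps with 5 or more held 167 (28.6%), and the fullest held 14. Neighbouring distal peaks in 1 gap were a median of 2354 bp apart, with 74 of 295 spacings under 1 kb. The smallest spacing was 199 bp, while chromatin was sonicated to pieces of up to 800 bp. The called region of the peak of rank 109 (chrX:1398714-1400036) spans 2 distal summits, at 1399277 and 1399476. Each summit was counted as a peak, and whether close summits mark 1 bound region or more was not tested. Another summit of the whole list lay within 5 kb of 67.1% of distal peaks and 78.1% of other peaks. Gaps with a distal peak had a median length of 18.7 kb and gaps without one 12.0 kb. Longer gaps hold more sequence beyond 5 kb from a TSS, so this contrast was in part set by the rule.

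Density was lowest in the longest gaps. It was 58.0 peaks per Mb of distal sequence in gaps of 10 to 20 kb, 41.1 in gaps of 20 to 40 kb and 33.2 in gaps of 40 to 80 kb. In the 36 gaps above 80 kb it was 1.47, with 9 peaks in 3 of the gaps. The nearest TSS was that of a protein-coding gene for 66.8% of distal peaks, of a noncoding RNA for 31.5% and of a tRNA for 1.71%. Its median distance was 8402 bp and the largest 43220 bp, and 50.7% of the peaks lay upstream of it. Both flanking protein-coding genes pointed their 5′ ends at the peak in 26.9% of cases (157 of 584), where 20.2% of the distal sequence has such neighbours. Both 3′ ends faced 24.1% of peaks and 27.0% of the sequence.

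The strongest distal peaks stood beside regulators and matrix genes as well as genes known only by a number. The first, of rank 47 in the whole list (chr3L:5621724-5622603, signal 6434.7), lay 8804 bp upstream of Blimp-1 and 13879 bp upstream of Eaf6, which encodes a subunit of histone acetyltransferase complexes. It ranked 26, 77 and 98 in replicates 1, 2 and 3. The second, of rank 77 (chr2R:13035110-13035815, signal 5186.3), lay 27461 bp from the end of Su(z)2, a Polycomb group gene, with CG13323 on the other side, and ranked 125, 69 and 57. The third, of rank 109 (chrX:1398714-1400036, signal 4557.9), lay 9792 bp upstream of futsch and 1940 bp from the end of Rilpl, and ranked 92, 120 and 134. All 3 were among the strongest 134 peaks of every replicate.

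Ranks 121, between CG13334 and CG42807, and 170, again between Eaf6 and Blimp-1, followed. Rank 343 lay between betaTub60D, a beta-tubulin gene, and slbo, which encodes the C/EBP factor of migrating border cells. Rank 391 lay 7870 bp upstream of ich and 9953 bp upstream of the carbonic anhydrase gene CAHbeta (chr3R:8970591-8971186). Rank 420 lay 16169 bp upstream of tnc and 18676 bp from the end of mah (chr3R:24967958-24968645). Rank 423 lay between CG11333 and mey, which encodes a zona pellucida domain protein of the apical matrix. Rank 488 lay 6592 bp from the end of Psc, which encodes a subunit of the Polycomb repressive complex PRC1, with CG13321 on the other side. Of these 10 strongest, 3 held the Blimp-1 site, those of ranks 109, 391 and 420. Of the 5 strongest with the site, the other 2 were rank 930 between flz and Np, a pair of serine protease genes, and rank 1400 between nrv3, a subunit of the sodium pump, and the histone H1 gene His1:CG33801.

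The fullest stretch between 2 protein-coding genes was the 117.1 kb from vvl to Prat2 on 3L, with 15 distal peaks, and 1 more lay on the other side of vvl. The gene vvl encodes a POU domain factor of the trachea and nervous system, and Prat2 an enzyme of purine synthesis. The 15 had signal values from 219.4 to 1281.3, and 12 lay from 2694 to 39889 bp from the end of vvl. The strongest, 29002 bp from vvl, ranked 1544, 1104 and 1041 in replicates 1, 2 and 3. All 15 were matched in all 3 replicates. The peaks at 17634 and 35901 bp held the site, with signal values of 382.5 and 413.8.

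The 75.0 kb from NijA, which encodes a ninjurin adhesion protein, to CG43245 held 13 distal peaks, none with the site. They lay from 38493 to 69779 bp from NijA and none lay nearer to it. The strongest had a signal of 2048.3 and rank 551, but the replicates differed on it, with ranks of 5206, 549 and 516. Its neighbour 55916 bp from NijA, with a signal of 1988.3, ranked 781, 560 and 437. The 47.9 kb from hng3 to CG13898 held 10, with signal values from 211.2 to 1075.9, and another 4 lay on the other side of hng3. The peak of rank 3423 between hng3 and CG13898 held the site.

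The 27.3 kb from CG44362 to CG7560 held 8 distal peaks. Of these, 6 with signal values from 801.1 to 1989.8 lay between 17682 and 20599 bp from CG44362, and the other 2 had 224.2 and 248.2. The 22.7 kb between Eaf6 and Blimp-1, whose 5′ ends face each other, held 7. The 2 strong ones, with 6434.7 and 3685.2, were 5446 bp apart and the other 5 lay between them, with signal values from 214.8 to 1403.4. The weaker ones were less alike in the replicates, since the peak of rank 5561 was matched in replicate 1 alone and that of rank 7287 ranked 3692, 22383 and 13620. No distal peak there held the site. The 46.7 kb from CG9932 to Ttc30, a gene of cilium assembly, held 7, and the strongest pair, 212 bp apart, had 1734.2 and 1102.8. The stretches from comm to CG6244 and from Tollo to Best4 also held 7 each, with 1 site in each, and are not drawn here because ties were broken by summed signal.

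**Figure D3:**
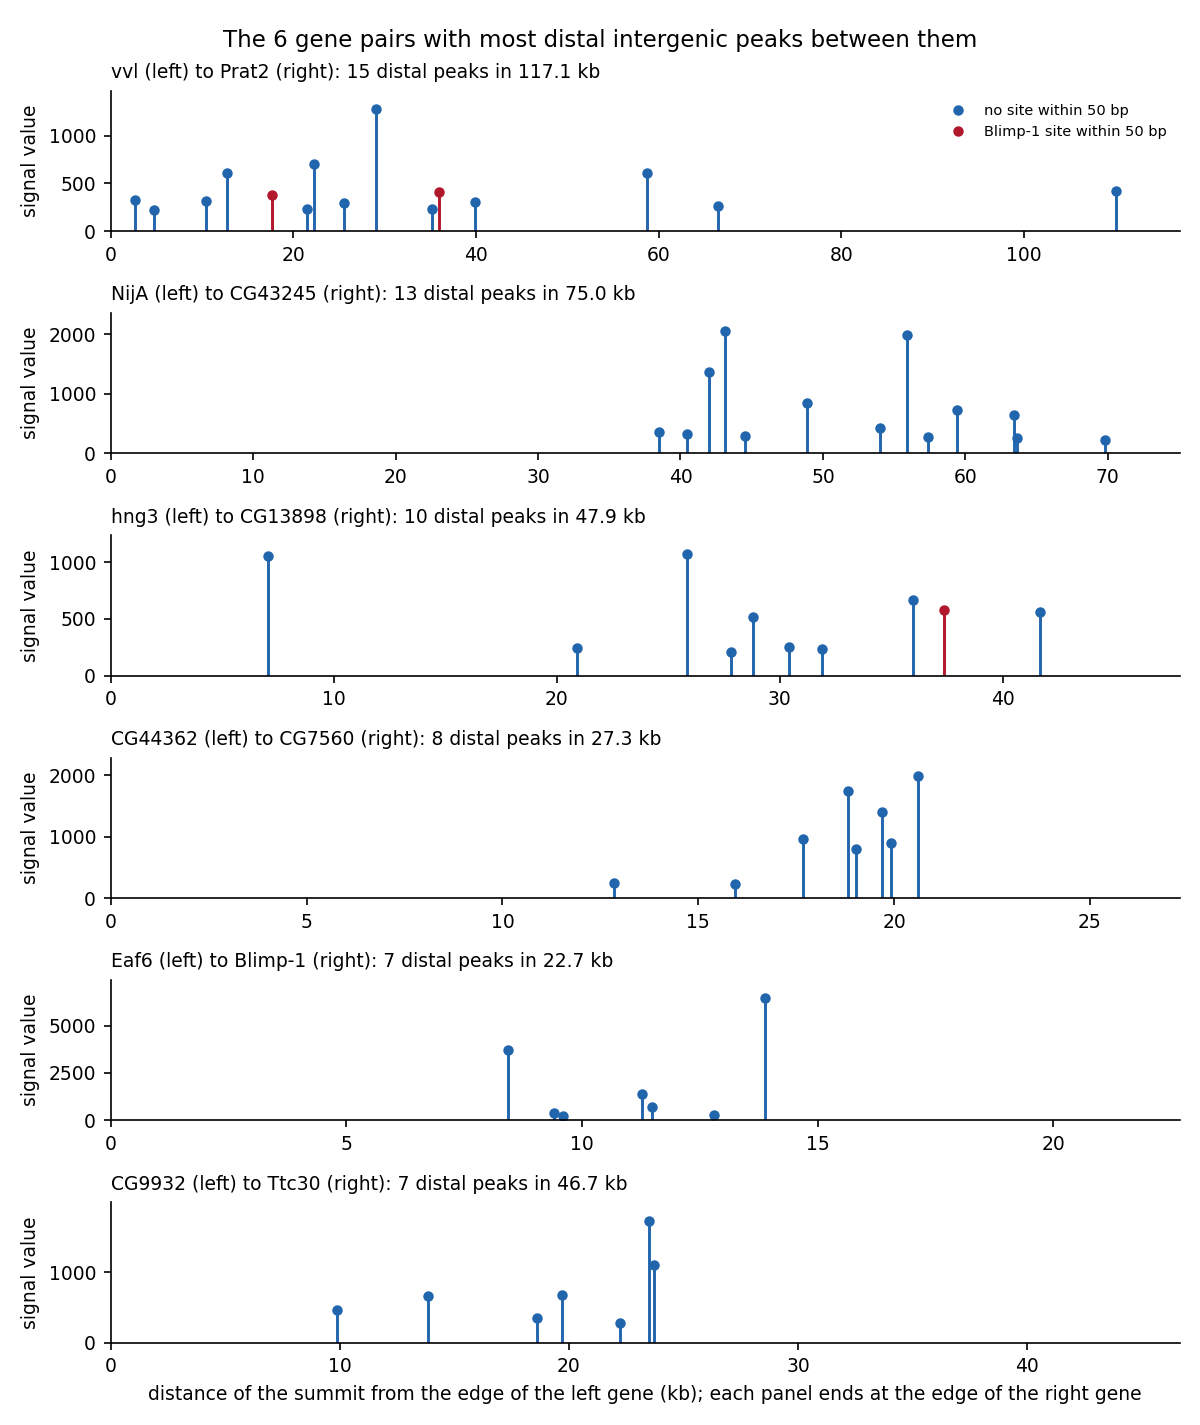
Signal value of each distal peak against its distance (kb) from the left gene, in the 6 stretches between protein-coding genes with most distal peaks, where a tie at 7 peaks was broken by summed signal; each panel spans the whole stretch, and red marks a Blimp-1 site within 50 bp. The peaks of vvl to Prat2 crowd toward vvl, those of NijA to CG43245 begin 38493 bp from NijA, and 3 of the 60 peaks are red.

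Genes for developmental transcription factors took a larger share of the neighbours of distal peaks than of the genes beside distal sequence with no peak. The 584 peaks had 479 protein-coding genes as immediate neighbours (3.42% of 13986), of which 235 flanked a single peak. Of 243 genes in 3 lists of transcription factors, 57 (23.5%) flanked a distal peak, and 159 of the 584 peaks (27.2%) lay beside 1 of them. They made up 11.9% of the 479 flanking genes, 5.27% of the 1633 genes that border distal sequence with no distal peak, and 1.74% of all coding genes. Per Mb of distal sequence in gaps of up to 80 kb, there were 81.8 peaks beside these genes, against 44.7 in every such gap and 38.0 in gaps beside no listed gene. These are descriptions of lists chosen with results of these data known.

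Among homeobox genes 25 of 97 (25.8%) flanked a distal peak, with 83 peaks, against 3.42% of all protein-coding genes. The gene hth, which encodes a partner of Hox proteins, flanked 10, and ems, a gene of head and brain patterning, flanked 9. The strongest peak of ems (signal 1139.7) ranked 1127, 1735 and 1774 in the replicates. The Pax genes toe and eyg shared 5 peaks, the strongest with a signal of 1330.2 and ranks of 1374, 1221 and 933. Among other developmental factors 29 of 107 (27.1%) flanked a distal peak, with 68 peaks. SoxN, a Sox gene of the nervous system, flanked 7 and chinmo, a BTB zinc finger gene, flanked 4, the strongest with a signal of 1998.2 and ranks of 563, 669 and 543. The forkhead gene croc flanked 2. The zinc finger gene noc flanked 4, and its strongest peak was not matched in replicate 1 but ranked 1349 and 1335 in replicates 2 and 3. Of bHLH genes 3 of 40 (7.50%) flanked a distal peak, which were hry with 6 and net and trh with 1 each, and the density beside genes of this list was 94.3 peaks per Mb over 9 gaps.

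Signalling genes were also among the neighbours, with 14 of 72 genes (19.4%, against 3.42% of all protein-coding genes) and 24 peaks. The Wnt genes wg and Wnt4 shared 5 peaks, the strongest with a signal of 972.0 and ranks of 1969, 1757 and 1800. The Hedgehog receptor gene ptc flanked 2, the strongest with 1388.9, and the fibroblast growth factor gene pyr flanked 5. Of tracheal genes 9 of 45 (20%) flanked a distal peak, with 32 peaks, of which 16 belong to vvl. Osi6 and Osi7 shared 4, the strongest with a signal of 1903.9 and ranks of 697, 586 and 590. The density was 96.1 peaks per Mb of distal sequence beside tracheal genes and 95.9 beside signalling genes. The lists overlap. The tracheal genes vvl, with 16 peaks, and salm, with 6, are also in the transcription factor lists, as are kni, knrl, trh and esg. Their peaks are counted in each list. Cell adhesion and guidance genes (18 of 121, 14.9%, 46 peaks) had 33.7 per Mb, below the 44.7 of every gap. Their strongest neighbours were the Toll family gene 18w with 7 peaks and shg, the E-cadherin gene, with 4.

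**Figure D4:**
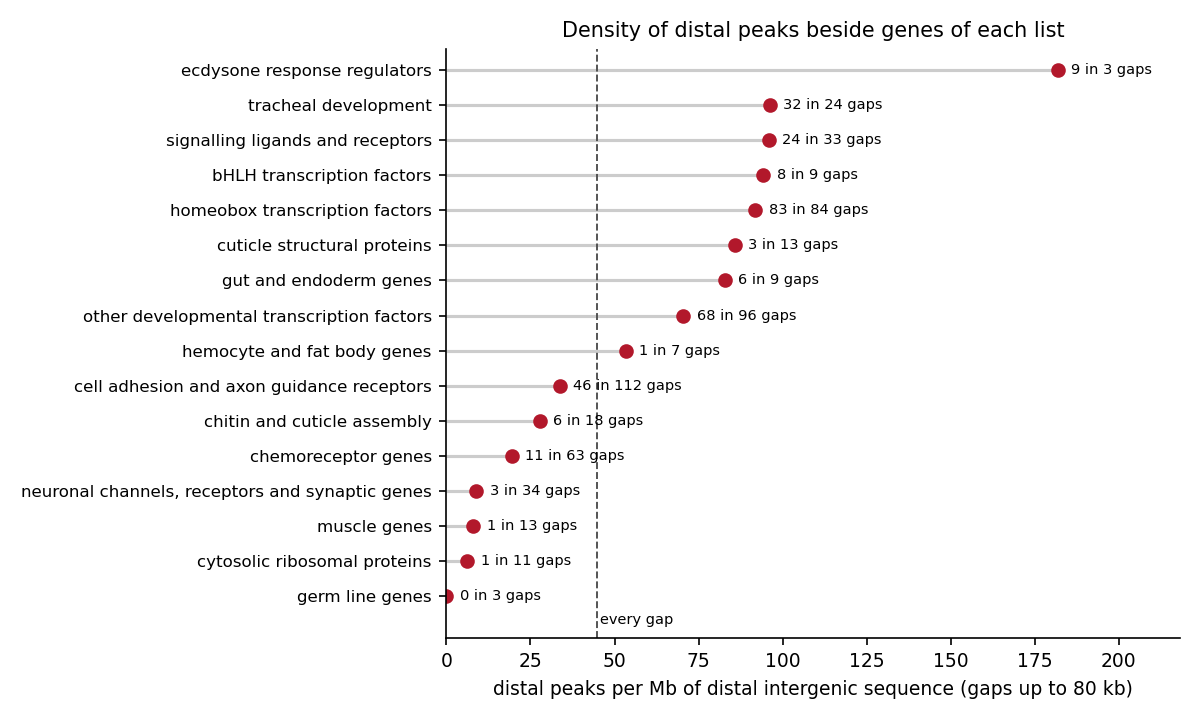
Distal peaks per Mb of distal intergenic sequence in gaps of up to 80 kb that border a gene of each list, with the number of peaks and gaps beside each point; the dashed line is every gap, at 44.7. The ecdysone list is highest at 182, with 3 gaps and 9 peaks, of which 7 lie beside Blimp-1. The tracheal, signalling and transcription factor lists lie between 70.5 and 96.1. So do cuticle structural proteins at 85.8 (3 peaks in 13 gaps) and gut genes at 82.7 (6 peaks in 9 gaps). The neuronal, muscle and ribosomal lists lie under 9.

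Of 31 ecdysone response genes 2 (6.45%) flanked distal peaks, against 3.42% of all protein-coding genes. The density beside them was 182 peaks per Mb, the highest of the lists, but from 9 peaks in 3 gaps. Blimp-1 flanked the 7 described above, and Eip93F, which encodes an ecdysone-induced factor of metamorphosis, flanked 2, the stronger 11827 bp upstream with a signal of 634.5 and ranks of 2772, 3282 and 3563. Chitin and cuticle assembly genes were 4 of 45 (8.89%). Among them, nyo lay beside 4 peaks and the chitin deacetylase genes serp and verm beside 1 with a signal of 991.7. The density beside this list was 27.8 per Mb from 6 peaks in 18 gaps, below the 44.7 of every gap. Cuticle protein genes were 3 of 128 (2.34%), led by Cpr35B with 1 peak. The density beside them was 85.8 per Mb from 3 peaks in 13 gaps. Lists of cell types and tissues varied. Gut genes were 3 of 37 (8.11%), with fkh beside 4 peaks, and had 82.7 peaks per Mb, above the 44.7 of every gap. These 3 are fkh, esg and Delta, regulators that are also in the transcription factor or signalling lists, so their peaks were already counted there. Hemocyte and fat body genes were 1 of 29 (3.45%), with 53.4 per Mb from 1 peak in 7 gaps. Neuronal channel and synaptic genes were 2 of 86 (2.33%), futsch and Dop1R2, at a density of 8.86 per Mb. Muscle genes were 1 of 35 (2.86%) at 7.96 per Mb and chemoreceptor genes 9 of 230 (3.91%) at 19.5. Cytosolic ribosomal protein genes were 1 of 92 (1.09%) at 6.20 and germ line genes 0 of 21. The hemocyte, muscle and chemoreceptor shares were close to the 3.42% of all protein-coding genes.

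The share of genes with a peak at their own start beside distal peaks was close to that of all protein-coding genes, and no test was run. A passing summit lay within 1 kb of a TSS in 124 of the 479 flanking genes (25.9%), in 19.5% of the 1633 genes that border distal sequence without a distal peak, and in 24.8% of all protein-coding genes. Among the 57 flanking transcription factor genes it was 8 (14.0%), against 116 of the 422 other flanking genes (27.5%) and 53 of all 243 listed factors (21.8%). Of the 25 homeobox genes beside distal peaks, 1 had such a promoter peak, and it was eyg. Neither vvl, hth nor ems had one.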

How the data were processed

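Whole embryos of 1 group were measured in 3 replicates. The authors deposited peak lists for each replicate and for the replicates together, called on dm6 against 1 shared control alignment per the labels; chromatin was sonicated to 200 to 800 bp. Aligner, peak caller and IDR cutoff: not given in the sources used here. The deposited signal value of each peak, on an undefined scale, gave each peak its rank. The deposited −log10 q-value held 1 value in all passing peaks and was not used. Without read counts the depth is unknown, and intervals cover counting error only.

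Summits were placed with Ensembl release 115 gene models and the dm6 sequence (Python 3.11.15, pandas 2.3.3, scipy 1.17.1), and replicate summits within 100 bp counted as matched. Windows reached 50 bp to each side, with flanks 500 bp to the right. Shares were compared by two-sided Fisher's exact tests, summits with flanks by exact McNemar or sign tests, with Benjamini-Hochberg adjustment within each family. Of 702 list names, 11 matched no gene. Peaks are not independent replicates, and p-values over peaks measure the spread among peaks, not among embryos.

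Named genes are the neighbours of the 10 strongest distal peaks, of the 6 fullest stretches (ties broken by summed signal), of the 5 strongest peaks with the site and matched in 3 replicates, ecdysone genes with a distal peak, and up to 4 genes a list by strongest peak; hth was named after its values were seen. The members, lists and rules were chosen with earlier results of these data known. Alternatives were other distance limits, annotation, strength, windows, flanks, matching distances, 1 peak per gap and leaving out each replicate.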

Additional observations from a re-analysis of the deposited data

How the results depend on the processing

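The lower distal share above the threshold, the lower strength and the lower GC content at summits kept their direction and stayed past the threshold under every alternative run for them. Strength under 1 peak per gap was not run, since taking the strongest peak sets it. The site ratio was called under all alternatives except the limit of 10 kb (3.67); in the stronger 50% of the list its flank held none, and against a floor of 3 counts over the group it was at least 5.33. Over the alternatives that leave out 1 replicate, the mean site ratio was 4.62 to 6.70, the mean distal share 5.65% to 5.85% and the odds ratio of matching in both others 0.715 to 1.36, which lies on both sides of 1. Matching within 50 bp gave 0.819, now past the threshold. The site odds ratio against near intergenic peaks was past the threshold with 25 bp (0.458) and 100 bp (0.602) on each side. Words called higher were 0 at 10 kb, 0 with 1 peak per gap and 1 without masked windows; words called lower were 0 with limits of 3 and 10 kb, coding genes only, the stronger 50% and 1 peak per gap. 6-mers called higher and lower numbered 19 and 6 at 10 kb, 209 and 311 with coding genes only, 19 and 4 in the stronger 50%, 24 and 9 with 1 peak per gap and 84 and 49 without masked windows, and 242 were lower at 3 kb. These alternatives hold 926 distal peaks at 3 kb, 214 at 10 kb, 1019 with coding genes only, 241 in the stronger 50% and 289 with 1 per gap, so fewer or more peaks enter the tests. Another summit lay within 2 kb of 44.3% and within 10 kb of 84.4% of distal peaks, and within 5 kb of 71.1% at the 3 kb limit, 71.6% with coding genes only and 46.9% in the stronger 50%. No paired analysis was possible because there is only 1 group, so no replicate numbers pair samples across groups; the McNemar and sign tests pair each summit with its own flank.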
